A study of Mus musculus with 8 samples.

Results

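The genes described here encode parts of the mitochondrial respiratory chain and were measured in mammary tumours of mice with expanded or normal huntingtin. The group was formed by gene symbol alone. It took every gene that has a probe set of its own and whose symbol starts with Nduf, Uqcr, Cox4, Cox5, Cox6, Cox7 or Cox8, together with Sdha, Sdhb, Sdhc and Sdhd. The rule found 52 genes among the 14860 genes that carry a single symbol in the table, each with 1 probe set. The rule itself used no measured value, but earlier results of these data were known when the genes were chosen. The genotypes compared were MMTV-PyVT/HdhQ111/Q111 (4 tumours), with 111 glutamines encoded by both alleles of the huntingtin gene, and MMTV-PyVT/HdhQ7/Q7 (4 tumours), with 7 glutamines. All mice carried the MMTV-PyVT transgene, in which the mammary tumour virus promoter drives the polyoma middle T oncoprotein in mammary epithelium, and all are labelled as strain FVB/CD1. Each tumour was hybridised to 1 Affymetrix Mouse Exon 1.0 ST array, and every value below is a log2 signal or a difference of log2 signals, always as HdhQ111/Q111 minus HdhQ7/Q7. Ages are not in the labels, and tumours were sampled by time since detection, so any difference in age cannot be told apart from genotype. Whether any of the tumours shared a mouse is not stated, and the p-values therefore cover the spread among these 8 tumours only.

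The respiratory chain sits in the inner mitochondrial membrane and passes electrons from NADH and succinate to oxygen. Complex I (NADH dehydrogenase) and complex II (succinate dehydrogenase, also an enzyme of the citrate cycle) feed electrons into ubiquinone, complex III hands them to cytochrome c, and complex IV (cytochrome c oxidase) reduces oxygen to water. Complexes I, III and IV pump protons as they do so, and the ATP synthase uses the resulting gradient. Most subunits are encoded in the nucleus, as all genes here are, while the catalytic cores of complexes III and IV and the membrane core of complex I also hold subunits encoded by mitochondrial DNA. Several complex IV subunits exist as a form used in most tissues and a second form used in heart and skeletal muscle, lung or testis. Tissues that respire strongly, such as muscle and brown fat, hold much more of these mRNAs than most epithelia.

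Respiratory chain genes showed small differences between the genotypes, mostly towards higher signal in HdhQ111/Q111 tumours, and none passed the test. The mean was higher in HdhQ111/Q111 tumours for 46 of the 52 genes (88.5%), whereas 56.4% of all 23332 probe sets and 62.5% of the brighter 60% of probe sets had a positive difference. The median difference of the 52 genes was 0.11, against 0.02 for all probe sets, and single genes ranged from -0.14 (Ndufs6) to 0.61 (Cox6a2). With limma and adjustment over all probe sets, 0 of 52 genes had an adjusted p under 0.05 in either direction (0.00857% of all probe sets did so as higher, 0.00429% as lower), and the smallest adjusted p was 0.592. No gene reached the study's thresholds (1.5-fold or more, and p no larger than 0.05 before adjustment), which 1.02% of all probe sets passed as higher and 0.339% as lower. At an unadjusted p of at most 0.05 alone, 5 genes (9.62%) were higher and 0 were lower, against 5.2% and 2.68% of all probe sets. The 4 HdhQ111/Q111 tumours all lay above the 4 HdhQ7/Q7 tumours for 5 genes (9.62%), Ndufa8, Ndufb10, Ndufb7, Uqcrc1 and Cox4i1, against 2.7% of all probe sets. No gene had all HdhQ111/Q111 tumours below, against 1.72%. For 45 of the 52 genes the 95% interval of the difference lay within 1.5-fold in either direction.

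**Figure D1:**
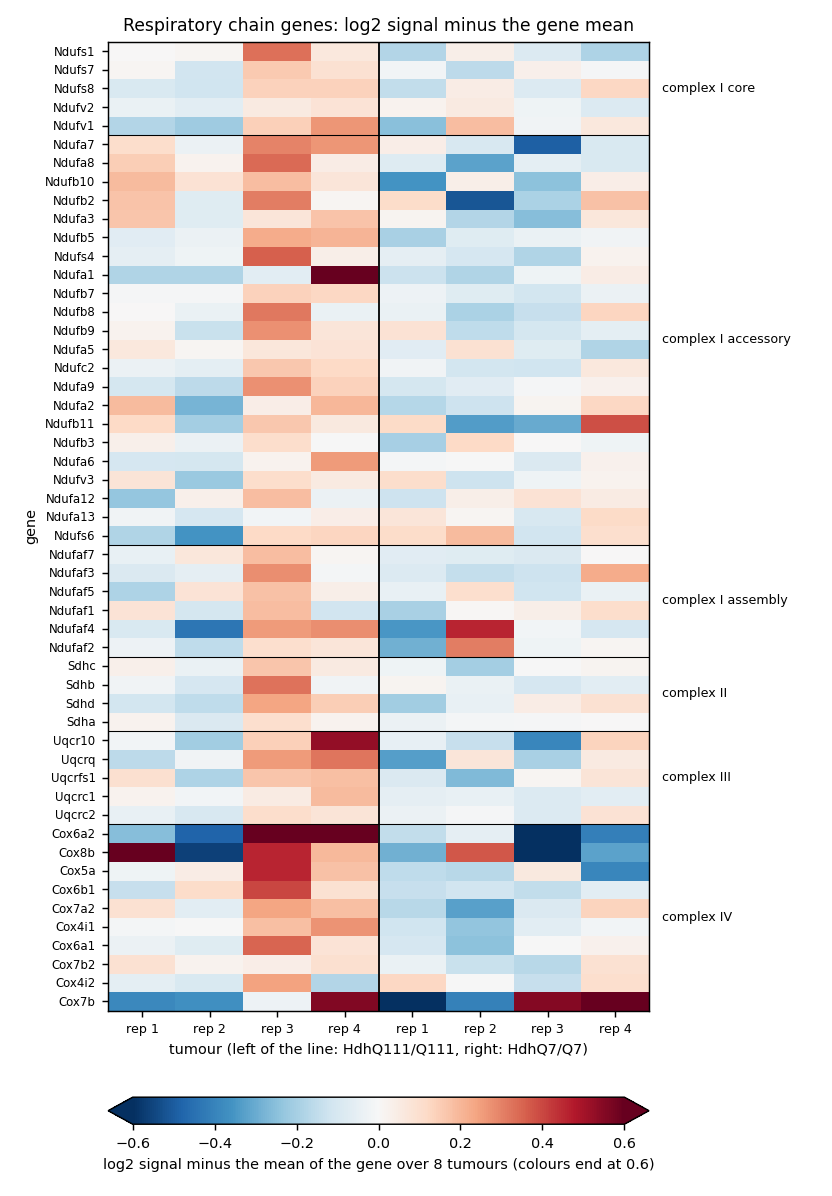
Log2 signal of each of the 52 respiratory chain genes (rows, grouped by complex) in each of the 8 tumours (columns, HdhQ111/Q111 left of the line and HdhQ7/Q7 right), minus the mean of the gene over all tumours. The columns of HdhQ111/Q111 replicates 3 and 4 are red in most rows, and 42 of the 52 genes had their highest signal in one of them.

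These differences lay mostly in a pair of tumours. HdhQ111/Q111 replicates 3 and 4 held the highest signal of all 8 tumours for 29 and 13 of the 52 genes, 42 in all, whereas 34.9% of all probe sets were highest there. Averaged over the genes, the deviation from each gene's mean was -0.01, -0.10, 0.21 and 0.14 in HdhQ111/Q111 replicates 1 to 4, and -0.10, -0.06, -0.10 and 0.02 in HdhQ7/Q7 replicates 1 to 4. HdhQ111/Q111 replicate 3 was thus the highest tumour, and HdhQ111/Q111 replicate 2 lay as low as the lowest HdhQ7/Q7 tumours. HdhQ111/Q111 replicates 3 and 4 also had the highest array medians over all probe sets (7.74 and 7.68). With each array centred on its median, their mean deviations shrank to 0.10 and 0.09, still the highest of the 8 tumours. Without replicates 3 and 4, a choice made after the values were seen, 25 of the 52 genes (48.1%) had a higher mean in HdhQ111/Q111 tumours, against 48.8% of all probe sets, and the median difference was -0.00063. Because this pair was highest for 42 of the genes, leaving it out had to lower the differences. Here and in the complexes below such values show only the level of the other tumours. At an unadjusted p of at most 0.05, 0 of 52 genes were then higher (3.54% of all probe sets) and 1, Ndufs6, was lower (2.71%). The count of 5 was 0 without replicate 3 alone (3.71% of all probe sets), 2 without replicate 4 (4.82%) and 8 without replicate 2 (6.74%). Leaving out HdhQ7/Q7 replicate 1, 2 or 3 gave 2, 3 and 2 (4.09%, 4.34% and 4.93% of all probe sets). The spread within HdhQ111/Q111 was the larger one for 38 of the 52 genes, against 50.9% of all probe sets.

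**Figure D2:**
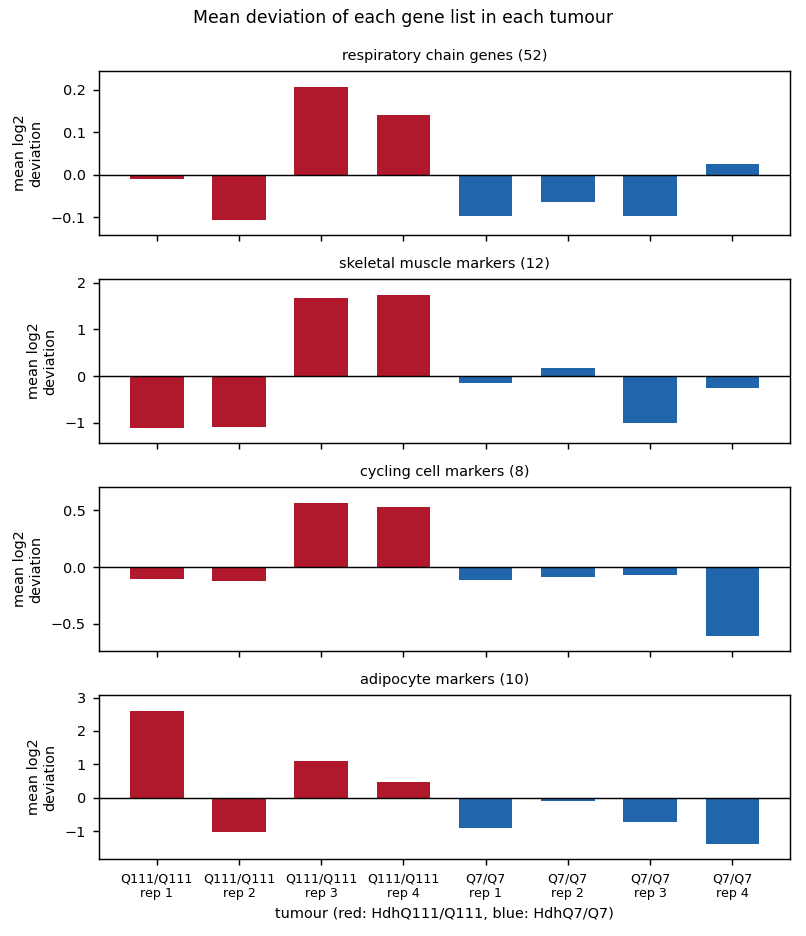
Mean deviation in log2 signal from the gene mean, per tumour, for the 52 respiratory chain genes and for marker lists of skeletal muscle, cycling cells and adipocytes (number of genes in brackets, vertical scales differ, red bars are HdhQ111/Q111 and blue bars HdhQ7/Q7). HdhQ111/Q111 replicates 3 and 4 have the highest bars for the respiratory chain genes (0.21 and 0.14), for skeletal muscle markers (1.67 and 1.74) and for cycling cell markers (0.57 and 0.53).

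Marker lists of other cell types differed between the tumours too, some in the same pair and some by genotype. Skeletal muscle markers (12 of 15 measured) averaged 6.42, 6.43, 9.18 and 9.26 in HdhQ111/Q111 replicates 1 to 4, against 7.38, 7.69, 6.52 and 7.26 in HdhQ7/Q7 replicates 1 to 4. Cycling cell markers (8 of 10 measured) averaged 9.73, 9.71, 10.40 and 10.37 in HdhQ111/Q111, against 9.73, 9.75, 9.77 and 9.24 in HdhQ7/Q7. Their part in the differences of the respiratory chain genes was not tested. Adipocyte markers (10 of 12 measured) followed another order, with 10.40, 6.77, 8.88 and 8.25 in HdhQ111/Q111 and 6.88, 7.68, 7.05 and 6.42 in HdhQ7/Q7. Each of the 10 had the higher mean in HdhQ111/Q111 (56.4% of all probe sets), with a median difference of 1.53, and 0 were without overlap (2.7%). Of them 4 were at an unadjusted p of at most 0.05 (5.2% of all probe sets) and 4 past the study's thresholds (1.02%). Fibroblast markers (10 of 10 measured) averaged 9.23 to 9.61 in HdhQ111/Q111 and 8.51 to 9.07 in HdhQ7/Q7. All 10 had the higher mean in HdhQ111/Q111 (56.4% of all probe sets), 7 at an unadjusted p of at most 0.05 (5.2%) and 6 without overlap between genotypes (2.7%). Macrophage markers averaged 8.53 to 8.87 in HdhQ111/Q111 and 8.48 to 8.62 in HdhQ7/Q7. Of 9 measured, 7 had the higher mean (56.4% of all probe sets), 4 of them at an unadjusted p of at most 0.05 (5.2%) and 2 without overlap (2.7%). T cell markers averaged 6.16 to 6.30 in HdhQ111/Q111 and 6.33 to 6.47 in HdhQ7/Q7. Of 8 measured, 6 had the lower mean (10167 of all 23332 probe sets), 3 of them at an unadjusted p of at most 0.05 (2.68%) and 2 without overlap (1.72%). The part of these cell types was not tested either. Markers of mammary epithelium, the tissue named in the labels, averaged 11.44 to 11.62 in HdhQ111/Q111 and 11.38 to 11.60 in HdhQ7/Q7 (10 of 12 measured). In RNA of whole tumours, fewer cells of a type and less RNA per cell cannot be told apart. The array medians lay between 7.58 and 7.74 and were higher by 0.07 on average in HdhQ111/Q111. After each array was centred on its median, 32 of the 52 genes (61.5%) had the higher mean in HdhQ111/Q111 tumours, against 36.6% of all probe sets, with a median difference of 0.04. At an unadjusted p of at most 0.05, 1 gene (Ndufa8) was then higher and 0 were lower, against 2.71% and 6.38% of all probe sets. After quantile normalization 37 genes had the higher mean, against 45.8% of all probe sets, and the median was 0.07, against -0.01 for all probe sets.

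**Figure D3:**
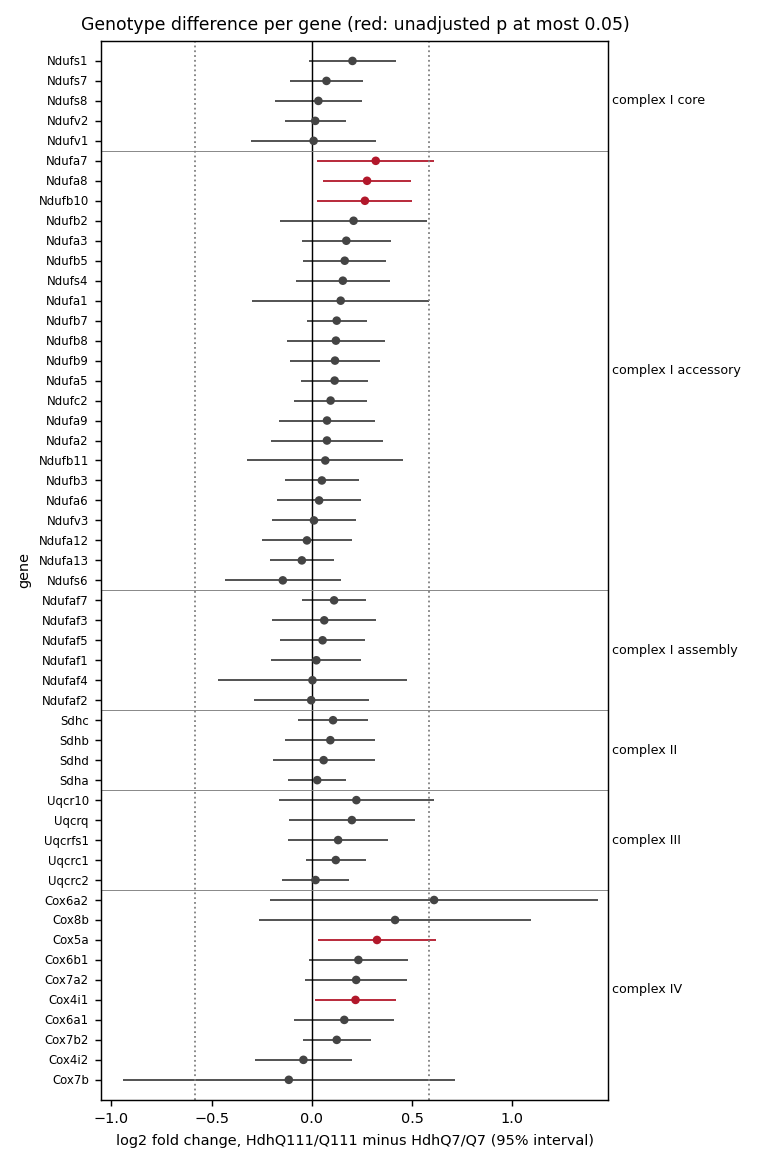
Difference in mean log2 signal, HdhQ111/Q111 minus HdhQ7/Q7, for each of the 52 genes grouped by complex, with 95% intervals from limma (4 tumours per genotype). Red marks the 5 genes at an unadjusted p of at most 0.05 (Ndufa7, Ndufa8, Ndufb10, Cox5a and Cox4i1), and the dotted lines are 1.5-fold differences. Most points lie right of 0, and 45 of the 52 intervals stay between the dotted lines.

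The core subunits of complex I, which bind NADH and carry the electrons along iron-sulphur clusters to ubiquinone, were nearly level. All 5 measured had a higher mean in HdhQ111/Q111 tumours, 0 of 5 at an unadjusted p of at most 0.05. Here and for the other complexes, 56.4% of all probe sets and 62.5% of the brighter ones had a higher mean, and 5.2% of all were higher at that p. The median difference was 0.03 and turned to -0.04 when arrays were centred and also without HdhQ111/Q111 replicates 3 and 4. Ndufs1, the largest subunit of the iron-sulphur path, measured 9.56, 9.57, 9.89 and 9.62 in HdhQ111/Q111 replicates 1 to 4, against 9.39, 9.60, 9.48 and 9.37 in HdhQ7/Q7 replicates 1 to 4. Its groups overlapped, with HdhQ111/Q111 replicate 3 highest, and the difference was 0.20 (SE 0.10) at an adjusted p of 0.639. Ndufs7, which holds the last cluster before ubiquinone, had 12.81, 12.68, 12.96 and 12.89 in HdhQ111/Q111 and 12.78, 12.64, 12.83 and 12.79 in HdhQ7/Q7, a difference of 0.07 (SE 0.08), adjusted p = 0.834. Ndufv1, the subunit that binds NADH and the flavin, differed by 0.01 (SE 0.14), and its partner Ndufv2 by 0.02 (SE 0.07). Ndufs8, a further iron-sulphur subunit, differed by 0.03 (SE 0.10). For Ndufv2 the interval of the difference, -0.13 to 0.17, was among the narrowest of the group.

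The accessory subunits of complex I surround that core and are needed for its assembly and stability. Of 22 measured, 19 had a higher mean in HdhQ111/Q111 tumours (56.4% of all probe sets), 3 of them at an unadjusted p of at most 0.05 (5.2%). The median difference was 0.11 (0.05 with arrays centred and 0.01 without HdhQ111/Q111 replicates 3 and 4). Ndufa8, a subunit on the intermembrane side of the membrane arm, measured 10.56, 10.43, 10.75 and 10.45 in HdhQ111/Q111 replicates 1 to 4 and 10.33, 10.08, 10.35 and 10.32 in HdhQ7/Q7 replicates 1 to 4. The groups did not overlap, and HdhQ7/Q7 replicate 2 was the lowest tumour. Means were 10.54 ± 0.15 in HdhQ111/Q111 and 10.27 ± 0.12 in HdhQ7/Q7 (SD, n = 4 each), a difference of 0.28 (SE 0.10) or 1.21-fold, with an unadjusted p of 0.0201 and an adjusted p of 0.592. The two-sided exact permutation test gave 0.0286, the smallest p that its 70 labellings allow. Ndufa8 lost its unadjusted p of at most 0.05 without HdhQ111/Q111 replicate 3 and without HdhQ7/Q7 replicate 2, with a difference of 0.21 each time.

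Ndufb10, another accessory subunit facing the intermembrane space, measured 7.94, 7.84, 7.94 and 7.82 in HdhQ111/Q111 and 7.39, 7.79, 7.50 and 7.79 in HdhQ7/Q7. Its HdhQ111/Q111 tumours lay close together, while HdhQ7/Q7 replicates 1 and 3 lay well below the other two. The difference was 0.26 (SE 0.10), adjusted p = 0.617. Without HdhQ111/Q111 replicates 3 and 4 the difference was 0.27. Ndufa7, a subunit of the arm that reaches into the matrix, measured 7.61, 7.47, 7.80 and 7.77 in HdhQ111/Q111 and 7.54, 7.41, 7.01 and 7.41 in HdhQ7/Q7. The groups overlapped, and HdhQ7/Q7 replicate 3 was lowest. The difference was 0.32 (SE 0.13), adjusted p = 0.617, and the exact permutation test gave p = 0.0571. Ndufb7, also on the intermembrane side, was named here because its groups did not overlap, with 9.28, 9.29, 9.43 and 9.42 in HdhQ111/Q111 and 9.26, 9.22, 9.18 and 9.26 in HdhQ7/Q7. The gap between its groups was narrow, and the difference was 0.12 (SE 0.07), adjusted p = 0.673.

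The other accessory subunits overlapped between the genotypes, and those named in this paragraph were chosen after their values were seen. In the membrane arm, Ndufb2 differed by 0.21 (SE 0.16), Ndufa3 by 0.17 (SE 0.10), Ndufb5 by 0.16 (SE 0.09), Ndufb8 by 0.12 (SE 0.11), Ndufb9 by 0.12 (SE 0.10), Ndufc2 by 0.09 (SE 0.08) and Ndufb3 by 0.05 (SE 0.08). In the matrix arm, Ndufs4, whose loss in mice causes a disease like Leigh syndrome, differed by 0.15 (SE 0.10) and Ndufa5 by 0.11 (SE 0.07). Ndufa9, at the joint of both arms, differed by 0.08 (SE 0.10), Ndufa2 by 0.08 (SE 0.12), Ndufa6 by 0.04 (SE 0.09) and Ndufv3 by 0.01 (SE 0.09). Of the pair on the X chromosome, Ndufa1 differed by 0.14 (SE 0.19) and Ndufb11 by 0.07 (SE 0.17). Ndufa1 was dim, at 5.75, 5.76, 5.87 and 6.65 in HdhQ111/Q111 and 5.81, 5.75, 5.91 and 5.98 in HdhQ7/Q7, so that its difference came from HdhQ111/Q111 replicate 4. Of these genes Ndufb11, Ndufb3, Ndufa6 and Ndufv3 turned to a negative difference with arrays centred.

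Only 3 accessory subunits had a lower mean in HdhQ111/Q111 tumours. Ndufs6, a zinc-binding subunit of the matrix arm, measured 8.60, 8.42, 8.90 and 8.91 in HdhQ111/Q111 and 8.89, 8.97, 8.67 and 8.88 in HdhQ7/Q7. HdhQ111/Q111 replicates 1 and 2 were its lowest tumours, and replicates 3 and 4 lay within the range of HdhQ7/Q7. The difference was -0.14 (SE 0.13), adjusted p = 0.785, and -0.34 without HdhQ111/Q111 replicates 3 and 4. Ndufa13, also known as GRIM-19 and needed for complex I assembly, differed by -0.05 (SE 0.07), and Ndufa12 by -0.02 (SE 0.10).

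Assembly factors help to build complex I and do not stay in it. The 6 measured had a median difference of 0.04, which became -0.03 with arrays centred, -0.02 after quantile normalization and -0.03 without HdhQ111/Q111 replicates 3 and 4, and 0 of 6 reached an unadjusted p of at most 0.05. Ndufaf7, a methyltransferase needed for assembly, measured 7.67, 7.78, 7.90 and 7.73 in HdhQ111/Q111 and 7.65, 7.64, 7.63 and 7.72 in HdhQ7/Q7. Of the HdhQ111/Q111 tumours only replicate 1 lay within the range of HdhQ7/Q7, and the difference was 0.11 (SE 0.07), adjusted p = 0.713. Ndufaf5, a hydroxylase that acts on Ndufs7, measured 7.19, 7.46, 7.55 and 7.42 in HdhQ111/Q111 and 7.33, 7.48, 7.26 and 7.34 in HdhQ7/Q7. Its difference was 0.05 (SE 0.09) and turned to -0.01 under both scalings. Ndufaf3 and Ndufaf4, which act together early in assembly, differed by 0.06 (SE 0.11) and 0.00 (SE 0.21). Ndufaf4 varied widely within both genotypes, 7.37 to 8.08 in HdhQ111/Q111 and 7.46 to 8.26 in HdhQ7/Q7. Ndufaf1, which acts on the membrane arm, differed by 0.02 (SE 0.10), and Ndufaf2, a late-acting factor, by -0.0031 (SE 0.13).

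Complex II was close to level, with differences of 0.03 to 0.11. All 4 subunits had a higher mean in HdhQ111/Q111 tumours, 0 of 4 at an unadjusted p of at most 0.05, and the median difference of 0.08 was 0.01 with arrays centred and -0.02 without HdhQ111/Q111 replicates 3 and 4. Sdha, the flavoprotein that oxidises succinate, measured 11.22, 11.11, 11.29 and 11.22 in HdhQ111/Q111 and 11.16, 11.18, 11.19 and 11.20 in HdhQ7/Q7. The 4 HdhQ7/Q7 tumours lay close together, inside the range of HdhQ111/Q111. The difference was 0.03 (SE 0.06) with a 95% interval of -0.12 to 0.17, adjusted p = 0.929, and it turned to -0.04 with arrays centred. Sdhb, the iron-sulphur subunit, measured 9.77, 9.69, 10.12 and 9.77 in HdhQ111/Q111 and 9.81, 9.75, 9.69 and 9.72 in HdhQ7/Q7. Here HdhQ111/Q111 replicate 3 alone stood above the rest, and the difference of 0.09 (SE 0.10) became -0.00087 without it. Of the membrane anchors, Sdhc measured 11.06, 10.99, 11.20 and 11.09 in HdhQ111/Q111 and 11.01, 10.83, 11.03 and 11.04 in HdhQ7/Q7, a difference of 0.11 (SE 0.08), adjusted p = 0.744. Sdhd, the second anchor, measured 10.69, 10.64, 11.03 and 10.95 in HdhQ111/Q111 and 10.59, 10.75, 10.84 and 10.89 in HdhQ7/Q7. Its groups overlapped, with HdhQ111/Q111 replicates 3 and 4 above all HdhQ7/Q7 tumours and HdhQ7/Q7 replicate 1 below all others, and the difference of 0.06 (SE 0.11), adjusted p = 0.91, turned to -0.01 with arrays centred.

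All 5 subunits of complex III had a higher mean in HdhQ111/Q111 tumours, 0 of 5 at an unadjusted p of at most 0.05. Their median difference was 0.13 (0.06 with arrays centred and 0.01 without HdhQ111/Q111 replicates 3 and 4). Uqcrc1, a core protein on the matrix side, measured 10.96, 10.92, 10.99 and 11.13 in HdhQ111/Q111 and 10.89, 10.90, 10.86 and 10.88 in HdhQ7/Q7. The groups did not overlap, since the HdhQ7/Q7 tumours lay within a narrow band, and HdhQ111/Q111 replicate 4 was highest. The difference was nevertheless small, 0.12 (SE 0.07), with an unadjusted p of 0.106 and an adjusted p of 0.692. Uqcrc2, the partner of Uqcrc1 in the core, differed by only 0.02 (SE 0.07). Uqcrq, a small subunit, measured 9.55, 9.69, 9.96 and 10.03 in HdhQ111/Q111 and 9.38, 9.78, 9.51 and 9.76 in HdhQ7/Q7. HdhQ111/Q111 replicates 3 and 4 were its highest tumours, and the difference of 0.20 (SE 0.14), adjusted p = 0.73, was 0.01 without them. Uqcr10, also a small subunit, showed the same layout with 0.22 (SE 0.17), and the Rieske iron-sulphur protein Uqcrfs1 differed by 0.13 (SE 0.11).

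Complex IV had the largest median difference of the complexes, 0.22 over 10 genes, with 0.15 after centring of arrays and 0.10 without HdhQ111/Q111 replicates 3 and 4. Of its 10 genes 8 had a higher mean in HdhQ111/Q111 tumours (56.4% of all probe sets), 2 of them at an unadjusted p of at most 0.05 (5.2%). Cox4i1, the form of subunit 4 found in most tissues, measured 10.48, 10.49, 10.67 and 10.77 in HdhQ111/Q111 and 10.37, 10.26, 10.43 and 10.48 in HdhQ7/Q7. The groups just failed to overlap, with HdhQ111/Q111 replicates 3 and 4 clearly highest. Means were 10.60 ± 0.14 in HdhQ111/Q111 and 10.39 ± 0.09 in HdhQ7/Q7 (SD, n = 4 each), a difference of 0.22 (SE 0.09) or 1.16-fold, adjusted p = 0.621, and 0.10 without those replicates. Cox5a, a subunit on the matrix side, measured 9.83, 9.89, 10.30 and 10.03 in HdhQ111/Q111 and 9.70, 9.69, 9.91 and 9.46 in HdhQ7/Q7. Its difference of 0.33 (SE 0.13) or 1.25-fold had an adjusted p of 0.617. HdhQ7/Q7 replicate 3 lay above HdhQ111/Q111 replicates 1 and 2, and the exact permutation test gave p = 0.0857. Without HdhQ111/Q111 replicates 3 and 4 the difference was 0.17.

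**Figure D4:**
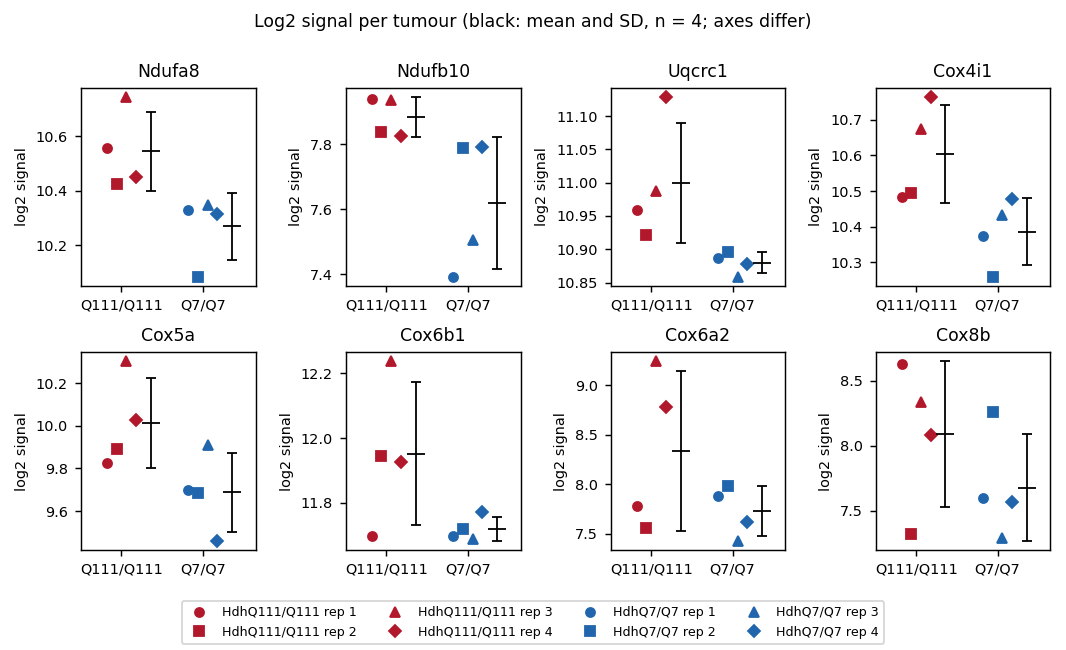
Log2 signal of 8 genes in each tumour (vertical scales differ, red HdhQ111/Q111 left, blue HdhQ7/Q7 right, symbols give the replicate, black bars are mean and SD of 4 tumours). The groups do not overlap for Ndufa8, Ndufb10, Uqcrc1 and Cox4i1, and for Cox6a2 HdhQ111/Q111 replicates 3 and 4 (9.24 and 8.78) lie apart from all others.

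Of the other common forms of complex IV subunits, Cox6b1, Cox6a1 and Cox7a2 were all highest in HdhQ111/Q111 replicate 3. Cox6b1, which joins the monomers of the enzyme, measured 11.70, 11.94, 12.24 and 11.93 in HdhQ111/Q111 and 11.70, 11.72, 11.69 and 11.77 in HdhQ7/Q7. HdhQ111/Q111 replicate 1 sat at the level of HdhQ7/Q7, whose tumours lay within a narrow band, and the difference was 0.23 (SE 0.11), adjusted p = 0.639. Cox6a1 measured 11.04, 11.01, 11.43 and 11.16 in HdhQ111/Q111 and 10.98, 10.83, 11.08 and 11.10 in HdhQ7/Q7, a difference of 0.16 (SE 0.11), adjusted p = 0.728. Cox7a2, the form used outside heart and muscle, measured 7.26, 7.10, 7.41 and 7.35 in HdhQ111/Q111 and 7.00, 6.84, 7.08 and 7.30 in HdhQ7/Q7, a difference of 0.22 (SE 0.11), adjusted p = 0.659. The groups of both overlapped. Cox7b, on the X chromosome, varied more within genotypes than between them, with 6.39, 6.41, 6.75 and 7.34 in HdhQ111/Q111 and 6.06, 6.38, 7.33 and 7.58 in HdhQ7/Q7. Its difference was -0.11 (SE 0.36) with a 95% interval of -0.94 to 0.71, so a difference of 1.5-fold in either direction could not be told from none.

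The forms of complex IV subunits restricted to certain tissues had layouts of their own across the tumours. Cox6a2, the heart and skeletal muscle form of subunit 6a, had the largest difference of all 52 genes. It measured 7.78, 7.56, 9.24 and 8.78 in HdhQ111/Q111 and 7.89, 7.98, 7.43 and 7.63 in HdhQ7/Q7, so replicates 3 and 4 lay above every other tumour while replicates 1 and 2 lay within the range of HdhQ7/Q7. The difference was 0.61 (SE 0.36) or 1.53-fold, unadjusted p = 0.125 and adjusted p = 0.7, and it was -0.06 without replicates 3 and 4, the tumours with skeletal muscle marker means of 9.18 and 9.26. Cox8b, the form used in heart, skeletal muscle and rodent brown fat, measured 8.63, 7.32, 8.34 and 8.08 in HdhQ111/Q111 and 7.60, 8.26, 7.29 and 7.56 in HdhQ7/Q7. Its highest tumour was HdhQ111/Q111 replicate 1, which also had the highest adipocyte marker mean (10.40) and one of the lowest skeletal muscle means (6.42). Among HdhQ7/Q7 tumours replicate 2 was highest. Brown adipocyte markers other than Cox8b (7 measured) averaged 5.94, 5.83, 5.74 and 5.90 in HdhQ111/Q111, against 5.87, 6.26, 5.94 and 5.87 in HdhQ7/Q7, so this list too was highest in HdhQ7/Q7 replicate 2. Ucp1, the uncoupling protein of brown fat (6.87), Cidea (6.33) and Elovl3 (5.08) were highest of all 8 tumours there. Its markers did not all move as one, since Zic1 (5.62) and Prdm16 (6.59) were at their lowest among HdhQ7/Q7 tumours, by narrow margins. Ppara and Dio2 lay between the other HdhQ7/Q7 tumours. The part of these cell types in the Cox8b difference of 0.42 (SE 0.30), adjusted p = 0.74, was not tested. Cox4i2, the lung form of subunit 4, measured 6.69, 6.66, 6.99 and 6.57 in HdhQ111/Q111 and 6.87, 6.75, 6.61 and 6.85 in HdhQ7/Q7, a difference of -0.04 (SE 0.11), adjusted p = 0.936. Cox7b2, known from testis, was dim at 3.72, 3.65, 3.67 and 3.72 in HdhQ111/Q111 and 3.58, 3.49, 3.46 and 3.72 in HdhQ7/Q7. Its difference was 0.12 (SE 0.07), adjusted p = 0.701. With Cox6a2 and Cox8b left out, the median of the other 50 genes was 0.10 and 44 of them had the higher mean in HdhQ111/Q111.

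None of the 52 genes lies within 10 Mb of Htt, the gene that carries the repeat, by RefSeq positions on GRCm38.p6. The closest, Cox7b2, is 36.5 Mb away.

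Promoters of respiratory chain genes are known for sites of NRF1, a factor that activates many genes of mitochondrial proteins. RefSeq promoters on GRCm38.p6, from 250 bases before to 50 after the start, were on hand for 43 of the 52 genes (45 promoters). An NRF1 motif, GCGC and TGCGC with any 1 base between them, was searched on both strands and was present in 11 of the 45 promoters (24.4%), against 4.6% of all 32851 promoters of the same length. Counted by gene it was 10 of 43 (23.3%), against 5.19%, since 2 overlapping promoters of Ndufa5 share 1 match. The motif CCGGAAG (both strands), bound by ETS factors such as GABP, was in 7 (15.6%, against 8.86%), and AAGATGG (both strands), bound by YY1, in 6 (13.3%, against 6.34%). The median GC content was 58.3% in these promoters and 52.7% in all. Of these, 4 promoters, each written in the direction of its gene, are shown to set genes with different values side by side, Ndufa8 and Uqcrc1 with no overlap between genotypes, Sdha with nearly level values and Cox8b as a tissue-restricted form. Capitals mark matches of the NRF1 motif, of which Cox8b holds none.
Ndufa8, chr2:36049289-36049588, minus strand: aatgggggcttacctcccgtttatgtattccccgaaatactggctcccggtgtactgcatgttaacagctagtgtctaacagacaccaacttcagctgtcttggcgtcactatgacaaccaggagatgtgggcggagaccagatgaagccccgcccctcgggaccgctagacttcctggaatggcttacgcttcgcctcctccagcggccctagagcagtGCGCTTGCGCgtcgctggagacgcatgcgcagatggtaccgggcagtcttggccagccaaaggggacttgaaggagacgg
Uqcrc1, chr9:108936398-108936697, plus strand: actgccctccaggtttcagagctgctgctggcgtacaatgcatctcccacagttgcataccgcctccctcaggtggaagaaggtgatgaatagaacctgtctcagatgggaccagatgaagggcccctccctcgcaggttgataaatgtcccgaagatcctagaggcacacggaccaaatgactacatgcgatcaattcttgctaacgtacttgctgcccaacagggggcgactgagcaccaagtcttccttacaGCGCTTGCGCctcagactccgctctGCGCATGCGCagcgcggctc
Sdha, chr13:74350191-74350490, minus strand: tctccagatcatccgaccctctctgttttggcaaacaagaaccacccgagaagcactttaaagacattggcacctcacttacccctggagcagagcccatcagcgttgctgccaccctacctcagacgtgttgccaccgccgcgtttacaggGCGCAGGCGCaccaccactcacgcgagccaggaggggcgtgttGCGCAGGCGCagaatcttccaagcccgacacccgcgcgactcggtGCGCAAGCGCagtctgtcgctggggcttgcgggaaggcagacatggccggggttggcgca
Cox8b, chr7:140900397-140900696, minus strand: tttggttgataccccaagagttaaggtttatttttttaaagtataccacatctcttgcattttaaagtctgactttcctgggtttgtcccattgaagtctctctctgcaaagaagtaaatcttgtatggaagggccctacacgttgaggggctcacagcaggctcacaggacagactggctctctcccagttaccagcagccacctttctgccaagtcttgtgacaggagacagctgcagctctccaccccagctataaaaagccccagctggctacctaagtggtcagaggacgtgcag
Ndufa8 holds 1 match, Uqcrc1 2 and Sdha 3. A match is a description of the letters and was not tested for binding.

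Genes that work with the respiratory chain mostly showed small differences too, with Pparg as the largest exception. Their counts stand against 56.4% of all probe sets with a higher mean and 5.2% higher at an unadjusted p of at most 0.05. Of the ATP synthase genes 7 of 18 listed were measured, and 6 of the 7 had a higher mean in HdhQ111/Q111 tumours, 1 at an unadjusted p of at most 0.05, with a median of 0.07. That gene, Atp5g3, a part of the rotating ring, measured 11.66, 11.70, 11.89 and 11.78 in HdhQ111/Q111 and 11.62, 11.60, 11.57 and 11.52 in HdhQ7/Q7, without overlap, a difference of 0.18 (SE 0.07), adjusted p = 0.617. Among electron carriers and enzymes of ubiquinone synthesis (13 of 16 measured) 12 had the higher mean, 2 at an unadjusted p of at most 0.05, with a median of 0.13. Etfdh, which passes electrons from fatty acid and amino acid breakdown to ubiquinone, differed by 0.20 (SE 0.08), adjusted p = 0.611, with overlap. Etfa, its electron donor, differed by 0.20 (SE 0.08), adjusted p = 0.63, without overlap. Citrate cycle genes (15 of 17 measured) had 13 higher means, 1 at an unadjusted p of at most 0.05, and a median of 0.08. That gene, Sucla2, a subunit of succinyl-CoA synthetase, differed by 0.23 (SE 0.09), adjusted p = 0.605, without overlap.

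Assembly factors of complexes II, III and IV (14 of 20 measured) had 10 higher means, 0 at an unadjusted p of at most 0.05, and a median of 0.07, with Fastkd2 at 0.15 (SE 0.10), adjusted p = 0.713. Regulators of respiratory genes (15 of 16 measured) had 12 higher means, 1 at an unadjusted p of at most 0.05, and a median of 0.11. Tfb1m, which methylates mitochondrial ribosomal RNA, was that gene and measured 9.88, 9.45, 9.94 and 9.55 in HdhQ111/Q111 and 9.04, 9.34, 9.25 and 9.53 in HdhQ7/Q7. HdhQ111/Q111 replicates 1 and 3 were highest, the groups overlapped, and the difference was 0.41 (SE 0.14) or 1.33-fold, adjusted p = 0.592. Pparg had the largest difference of the regulators, 0.81 (SE 0.36) or 1.75-fold, with an unadjusted p of 0.0536 and an adjusted p of 0.634. Its groups overlapped, and HdhQ111/Q111 replicate 1 was highest at 8.90, the tumour with the highest adipocyte marker mean (10.40). Among HdhQ7/Q7 tumours replicate 2 was highest for both, while the order of the others differed. The part of adipocytes in the Pparg difference was not tested. No gene of these 5 lists passed an adjusted p of 0.05 or the study's thresholds, in either direction, and none was lower at an unadjusted p of at most 0.05. With arrays centred, medians were 0.01 for ATP synthase (4 of 7 higher), 0.02 for the citrate cycle (8 of 15) and 0.00067 for these assembly factors (7 of 14). They were 0.06 for electron carriers and ubiquinone synthesis (10 of 13) and 0.05 for the regulators (8 of 15). Of all probe sets 36.6% were then higher, with a median of -0.05. Without HdhQ111/Q111 replicates 3 and 4 the medians of the 5 lists lay between -0.07 and 0.05, negative for the citrate cycle and for the assembly factors of complexes II, III and IV. All these lists shared the HdhQ111/Q111 and HdhQ7/Q7 tumours described above, so their counts are not independent of each other.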

How the data were processed

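Total RNA of 8 mammary tumours was measured on Affymetrix Mouse Exon 1.0 ST arrays, 1 array per tumour and 4 per genotype. The authors deposited 1 table of log2 signals with 23332 probe sets. The sources used here do not give its normalization, and the labels name probe set definitions on mm9. For the gene analysis of the study itself the authors describe quantile normalization, a background correction from antigenomic probes and a filter on detection. Array medians differed by at most 0.160, below the limit of 0.2 set for rescaling, and values were used as deposited. The table holds no background signal, so detection of dim probe sets could not be judged, and precision is limited by the number of arrays.

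Symbols came from the platform annotation (14996 probe sets with 1 symbol, 1019 with several, 7317 with none), and positions and promoters from RefSeq (GRCm38.p6). Rule genes without a probe set of their own are not analysed here. The comparison of genotypes used limma (version 3.58.1, R 4.3.3) with plain moderated variances on all probe sets, and two-sided p-values were adjusted over all of them by Benjamini-Hochberg. An exact permutation test over the 70 labellings of 4 against 4 was added for single genes. Summaries and plots used Python 3.11.15, pandas 2.3.3 and matplotlib 3.10.9. The limma fit and the t-test were tested on simulated data.

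The genes, lists, markers and tests were chosen with earlier results of these data known. Genes were named by rule: those at an unadjusted p of at most 0.05 or past a stricter threshold, the 2 of smallest p in each class, all complex II subunits, tissue forms and their common partners, genes within 10 Mb of Htt and 1 gene per related list. Others were named after their values were seen. Alternatives were the t-test of the methods, array weights, robust fitting with a variance trend, centring of arrays, quantile normalization, a replicate block, removal of the dimmest 40% of probe sets, leaving out each tumour, a fold threshold of 2, subunits without assembly factors, and, added after values were seen, leaving out HdhQ111/Q111 replicates 3 and 4.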

Additional observations from a re-analysis of the deposited data

Results flagged for a closer look

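In 4 of the 104 sets of 4 tumours (52 genes in each of the 2 genotypes) 1 tumour lay far from the others of its genotype. Chance alone marks about 1 in 20 such sets. Ndufa1 stood at 6.65 in HdhQ111/Q111 replicate 4, with 5.75 to 5.87 in the other HdhQ111/Q111 tumours. Ndufb8 stood at 9.35 in HdhQ111/Q111 replicate 3, with 8.99 to 9.03 in the others. Ndufv3 stood at 9.08 in HdhQ111/Q111 replicate 2, with 9.36 to 9.41 in the others. Ndufa8 stood at 10.08 in HdhQ7/Q7 replicate 2, with 10.32 to 10.35 in the others.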

How the results depend on the processing

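Of the 52 genes 0 had an adjusted p under 0.05 under every alternative. The 5 genes higher at an unadjusted p of at most 0.05 were 3 after quantile normalization (Ndufa8, Cox4i1 and Cox5a; 3.65% of all probe sets), 1 with arrays centred (Ndufa8; 2.71%), 0 without HdhQ111/Q111 replicates 3 and 4 together (3.54%), and 0 to 8 when 1 tumour was left out (3.71% to 6.74%). The 5 genes without overlap between genotypes were 2 after quantile normalization (1.83% of all probe sets), 2 with arrays centred (1.22%) and 5 to 10 when 1 tumour was left out (3.62% to 6.18%). Genes past the study's thresholds as higher numbered 0 to 2 when 1 tumour was left out, the 2 (Cox6a2 and Cox8b) without HdhQ111/Q111 replicate 2. Of all 23332 probe sets, 369 passed them as higher without that replicate, against 238 with all tumours. Without HdhQ111/Q111 replicates 3 and 4, the genes with a higher mean numbered 25, those lower at an unadjusted p of at most 0.05 numbered 1 (Ndufs6), those without overlap numbered 2 as lower (Ndufa6 and Ndufs6, against 8.11% of all probe sets) and 5 as higher (against 7.52%), and the median difference was -0.00063.

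Among the genes named by rule, signs turned as follows. After quantile normalization Ndufaf5 was at -0.014 and Sdha at -0.0020. With arrays centred Ndufaf5 was at -0.014, Sdha at -0.041 and Sdhd at -0.0088. Without HdhQ111/Q111 replicates 3 and 4, Cox6a2 was at -0.063, Ndufaf5 at -0.025, Ndufs7 at -0.014, Sdha at -0.019, Sdhb at -0.014 and Sdhd at -0.10. With 1 tumour left out, Sdha ranged from -0.0016 to 0.060, Sdhb from -0.00087 to 0.14, Sdhd from -0.0098 to 0.12, Cox4i2 from -0.13 to 0.0098 and Cox7b from -0.37 to 0.13. The cause was not tested. A fold threshold of 2 also gave 0 genes. The t-test of the methods, the variance trend, array weights and removal of dim probe sets moved no count by more than 1.5 times, but calls differed. At an unadjusted p of at most 0.05 the t-test lost Cox5a and Ndufa7 and gained Uqcrc1, array weights lost Cox5a and gained Cox7a2, and the variance trend gained Cox6b1, among the genes named by rule. Of the 46 subunits without assembly factors 41 had a higher mean, with a median of 0.12. Replicate numbers did not pair the tumours (correlations of same-numbered deviations from -0.19 to 0.03). The replicate block gave 4 genes higher at an unadjusted p of at most 0.05 in place of 5 (4.8% of all probe sets, against 5.2%). It lost Ndufa7 and Ndufb10 and gained Cox7a2.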

Other observations

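A further 4 probe sets carry a respiratory chain symbol together with other symbols, so their signal cannot be given to a single gene. The probe set of Ndufa10, Olfr1415 and Olfr1416 measured 11.22, 11.19, 11.55 and 11.37 in HdhQ111/Q111 replicates 1 to 4, against 11.13, 10.95, 11.17 and 11.16 in HdhQ7/Q7, without overlap, a difference of 0.23 (SE 0.10, adjusted p = 0.630). The probe set of Cox7a2l and Gm6969 differed by 0.19, that of Ndufa11 and Ndufa11b by 0.11, and that of Cox6c and EG621837 by 0.03, with adjusted p of 0.699, 0.798 and 0.918.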
